A study of Mus musculus with 35 samples.

Results

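Interferon-stimulated genes are the genes that cells switch on when they sense an interferon. The list of them used here held 43 genes, set by name for their known role, with earlier results of these arrays known. Of these, 40 were measured, among 12393 genes in all, each by the probe set with the highest mean over all 35 arrays. Isg15 was represented on probe sets that carry several gene symbols and was not used here, and Ifi44 and Ly6e were not analysed here. The 40 genes were read in 4 groups by role: 10 chemokines, GTPases and other genes known best from the interferon-gamma response, 7 genes of antigen processing, 5 transcription factors and feedback genes, and 18 genes of the type I response.

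Type I interferons (alpha and beta) and interferon gamma bind separate receptors, which activate Jak kinases and STAT proteins. Type I signalling works mainly through a complex that includes Stat2 and Irf9 at a promoter element called ISRE, while interferon gamma works mainly through an element called GAS and through Irf1. The antiviral effectors, the GTPases that attack the vacuoles of intracellular microbes, the chemokines that draw T cells and the machinery that loads peptides onto MHC class I are all among the targets.

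The 22 arrays of normal cells came from wild-type mice. Bone marrow gave pro-B cells (B220-positive, CD43-high, IgM-negative, n = 3), pre-B cells (B220-positive, CD43-low, IgM-negative, n = 3) and plasma cells (Cd138-positive, Cd93-negative and low in B220, n = 3). Spleen gave transitional B cells (B220-positive, Cd93-positive, n = 4), germinal centre B cells (B220-positive, PNA-high, n = 5) and plasmablasts (B220-positive, Cd138-positive, Cd93-negative, n = 4). Pre-B and transitional cells were of strain 129, germinal centre cells, plasmablasts and plasma cells of strain B6, and pro-B cells of strain 129 (2 arrays) and B6 (1 array). The 13 tumour arrays were lymphoid tumours with no sort named: 4 from Bcl6 knock-in mice (Bcl6 tumours), 3 from Bcl6/Myc dual-transgenic mice (Myc/Bcl6 tumours) and 6 from Lig4/p53 double knock-out mice (Lig4/p53 tumours). The strain of the tumours is not reported here, and its part in the tumour comparisons was not tested. Ages, the number of mice behind an array, and the promoter that drives the Bcl6 and Myc alleles are not given in the labels.

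All values below are log2 probe set intensities, and every difference is a difference of group means on that scale with its standard error (SE). A gene was called when limma's adjusted p (Benjamini-Hochberg over all 12393 genes) was under 0.05. Some arrays and labels stood apart. The interquartile range of all genes was 2.03 to 2.85 in pro-B array 1, pre-B array 2, Bcl6 tumour array 2 and the 3 Myc/Bcl6 tumours, against 3.25 to 4.23 elsewhere, and arrays of 1 group correlated between 0.578 and 0.991. The 18S rRNA probe sets read 10.04 to 11.28 in the sorted cells other than plasma cells and 4.02 to 7.38 in plasma cells and tumours. The 3' minus 5' difference of the control genes was 2.26 to 4.7 in tumours and 0.451 to 4.59 in plasma cells, against 0.680 to 2.95 in the other groups. In the arrays labelled plasma cell, Sdc1, which encodes the sort marker Cd138, had the lowest mean of all 9 groups (4.73, against 8.75 in plasmablasts). Bcl6 read 7.17 in Bcl6 tumours and 6.68 in Myc/Bcl6 tumours, below its 11.22 in germinal centre cells, and Myc read 5.15 in Myc/Bcl6 tumours and 8.48 in germinal centre cells. Whether these probe sets read the engineered transcripts is not given, so they do not check the tumour labels. The part of these technical differences in the results was not tested.

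Across the 9 groups the 40 genes followed no single course. The mean of the interferon-gamma genes was low in every normal stage and in Lig4/p53 tumours, and high in Bcl6 and Myc/Bcl6 tumours. It was 4.28 to 5.53 over the 22 normal arrays, 8.16 to 10.51 in Bcl6 tumours, 7.09 to 8.76 in Myc/Bcl6 tumours and 4.91 to 5.76 in Lig4/p53 tumours, so the first pair of tumour groups lay wholly above all other arrays. Not each of the 10 genes did so: Ifi47 read 7.87 to 8.70 in germinal centre cells and 7.37 to 8.73 in Myc/Bcl6 tumours. The antigen processing genes had a mean of 7.62 to 10.20 over normal arrays and of 7.45 to 8.22 in Myc/Bcl6 tumours. The type I genes had a mean of 4.93 to 6.69 over normal arrays, 5.64 to 6.84 in Bcl6 tumours, 5.31 to 6.53 in Myc/Bcl6 tumours and 4.26 to 5.1 in Lig4/p53 tumours. By this mean the Lig4/p53 tumours lay below all Bcl6 and Myc/Bcl6 tumours and overlapped the normal arrays, as did both other tumour groups.

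**Figure D1:**
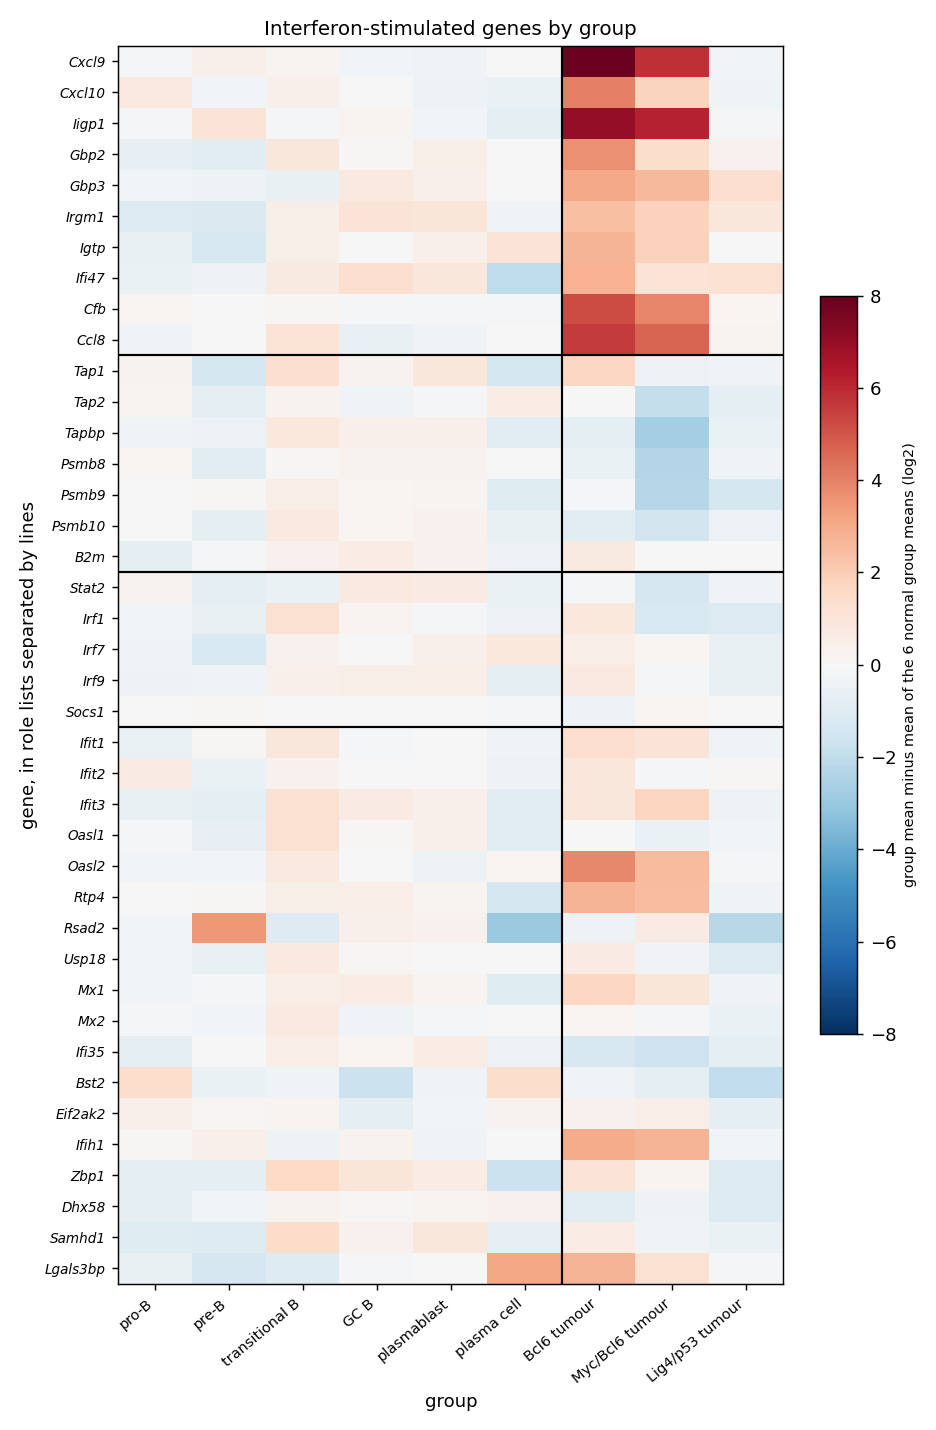
Heat map of the 40 interferon-stimulated genes in 9 groups, in blocks by role; colour is the group mean with the average over the 6 normal groups subtracted (log2 scale). The interferon-gamma block is red in the Bcl6 and Myc/Bcl6 tumours, and most of the antigen processing block is blue in the Myc/Bcl6 tumours.

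**Figure D2:**
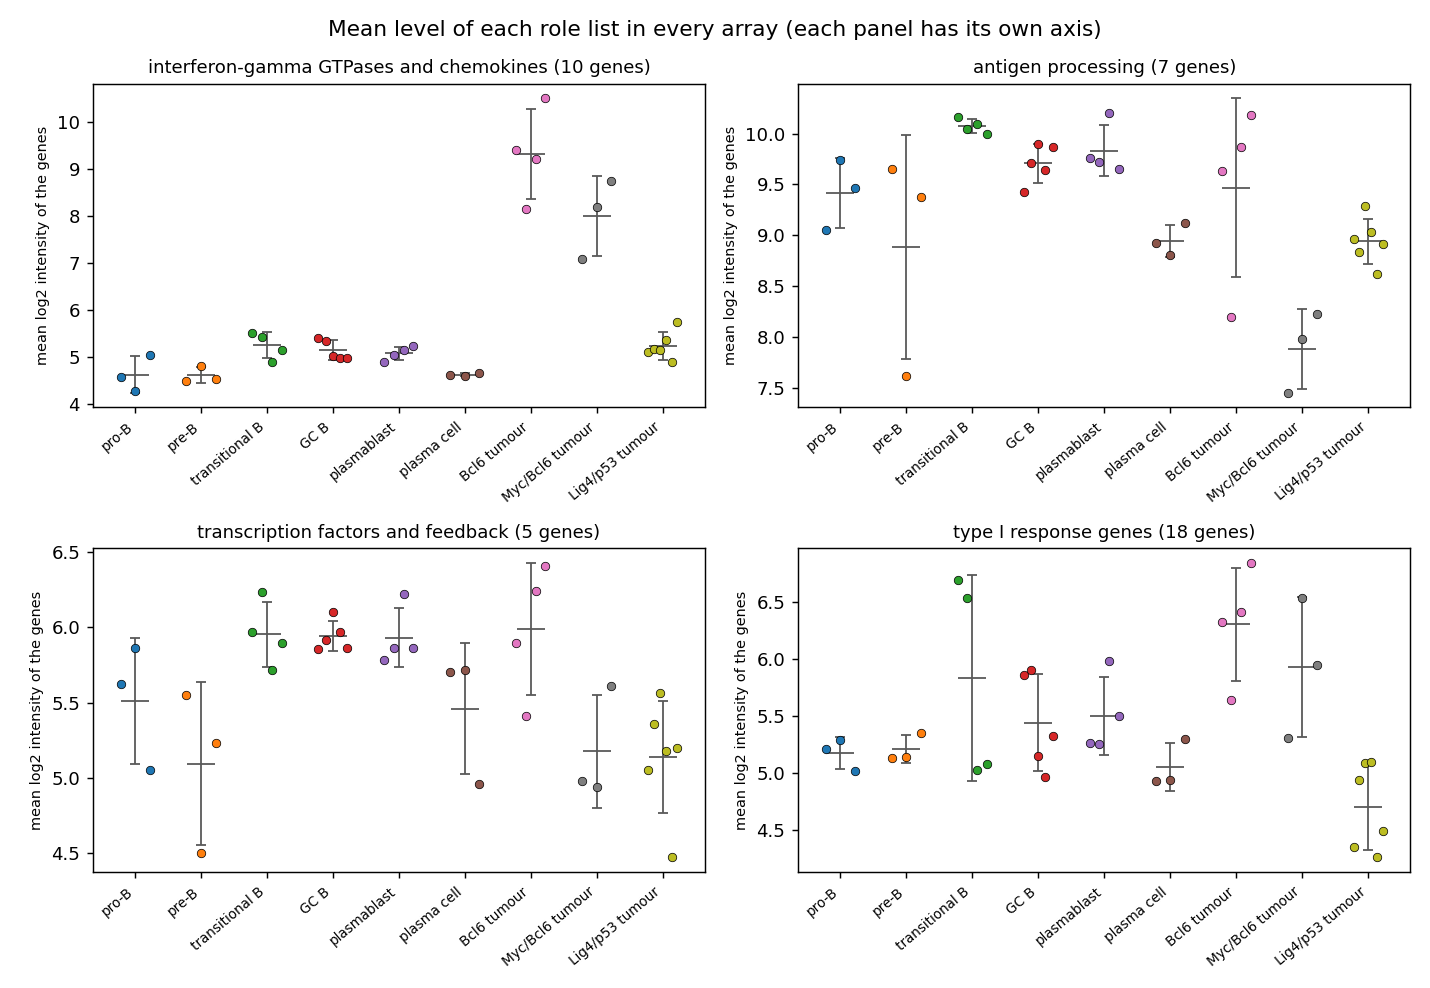
Mean log2 intensity of the 4 role lists in each of the 35 arrays, by group; each point is 1 array. The interferon-gamma list reached 8.16 to 10.51 in Bcl6 tumours and no more than 5.53 in any normal array, while the type I list of the transitional arrays fell in 2 pairs, 6.69 and 6.53 against 5.03 and 5.08.

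The sequence just before the start of these genes is shown for 4 members because it carries the elements through which interferons are known to act. RefSeq windows from 250 bases before to 50 after the start (GRCm38.p6) were at hand for 31 of the 40 genes and for 27025 genes in all. The core of the ISRE was searched as GAAA, 2 bases of any kind and GAAA again, and the GAS element as TTCNNNGAA, on both strands. An ISRE core lay in the window of 14 of the 31 members (45.2%) and in 3.99% of all genes, and a GAS match in 8 of 31 (25.8%) and in 9.55% of all genes. By role, the ISRE core was found for 5 of 8 interferon-gamma genes, 1 of 6 antigen processing genes, 2 of 5 transcription factor and feedback genes and 6 of 12 type I genes with a window. The GAS match was found for 1 of 8 interferon-gamma genes (12.5%), near the share of all genes, and for 5 of 12 type I genes (41.7%). It was also found for 1 of 6 antigen processing genes and 1 of 5 transcription factor and feedback genes. Matches of the 2 motifs shared bases in 1 member window and in 24 windows of all. The 250 bases before the start are given 5' to 3' for Cxcl10 (chr5:92348890-92349139, minus strand), Gbp2 (chr3:142620413-142620662, plus strand), Igtp (chr11:58199306-58199555, plus strand) and Ifit3 (chr19:34583279-34583528, plus strand), with matches in capitals.

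Cxcl10: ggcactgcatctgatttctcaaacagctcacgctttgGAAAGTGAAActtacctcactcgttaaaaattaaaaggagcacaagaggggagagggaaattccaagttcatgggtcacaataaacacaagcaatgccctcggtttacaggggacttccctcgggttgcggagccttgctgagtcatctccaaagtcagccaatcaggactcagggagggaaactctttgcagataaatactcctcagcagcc

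Gbp2: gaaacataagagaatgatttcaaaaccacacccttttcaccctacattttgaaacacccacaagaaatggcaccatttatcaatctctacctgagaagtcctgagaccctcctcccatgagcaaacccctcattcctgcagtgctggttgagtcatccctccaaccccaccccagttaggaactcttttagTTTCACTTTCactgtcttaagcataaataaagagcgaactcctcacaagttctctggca

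Igtp: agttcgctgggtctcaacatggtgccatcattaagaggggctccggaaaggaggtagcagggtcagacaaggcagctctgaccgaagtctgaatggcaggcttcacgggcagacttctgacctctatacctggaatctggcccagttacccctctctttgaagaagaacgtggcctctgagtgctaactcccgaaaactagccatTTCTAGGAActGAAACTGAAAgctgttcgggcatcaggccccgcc

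Ifit3: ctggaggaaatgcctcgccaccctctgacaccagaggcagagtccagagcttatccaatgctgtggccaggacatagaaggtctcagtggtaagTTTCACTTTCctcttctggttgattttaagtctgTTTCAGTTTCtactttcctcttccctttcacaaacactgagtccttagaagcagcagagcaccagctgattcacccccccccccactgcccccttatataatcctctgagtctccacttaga

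In Cxcl10 the capitals mark the ISRE core at position -213 from the start. In Gbp2 they mark the core, read on the opposite strand, at -59. Igtp has a GAS match at -45 and an ISRE core at -34, set apart by a pair of bases, and Ifit3 has ISRE cores, also on the opposite strand, at -156 and -122. A match is a stretch of letters and was not tested as a binding site.

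Bcl6 tumours were compared with germinal centre B cells, the normal stage in which Bcl6 is most active. In Bcl6 tumours 17 of the 40 interferon-stimulated genes were called higher, where 16.7% of all genes were, and 3 were called lower, where 17.4% were. Of the 10 interferon-gamma genes 9 rose and none fell (median difference 3.78, against 0.21 for all genes). The type I genes were divided, with 7 of 18 called higher and 2 lower (median 0.73). Of the antigen processing genes Tap1 rose and Psmb10 fell, and none of the 5 transcription factor and feedback genes was called. No sort is named for the Bcl6 tumours, while the germinal centre cells were sorted. In such bulk samples fewer cells of a type and less RNA per cell cannot be told apart.

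Cxcl9, a chemokine that attracts activated T cells and is made above all in answer to interferon gamma, moved furthest. It read 10.30, 9.59, 10.83 and 11.91 in the 4 Bcl6 tumours and 2.55, 2.97, 2.44, 2.47 and 2.47 in the 5 germinal centre arrays. The tumours lay far above every germinal centre array, by 8.08 ± 0.40 (limma adjusted p = 1.48e-06). Iigp1, a GTPase that acts on the vacuoles of intracellular parasites, read 11.05, 9.06, 10.59 and 11.05 in Bcl6 tumours and 3.41, 3.68, 3.51, 3.83 and 3.43 in germinal centre cells. Again no arrays overlapped, and Iigp1 rose by 6.87 ± 0.38 (adjusted p = 2.17e-06). Cfb, complement factor B of the alternative pathway, read 7.90, 8.52, 9.47 and 10.32 against 3.88, 3.85, 3.38, 3.75 and 3.66. Its difference was 5.35 ± 0.42 (adjusted p = 1.31e-05), without overlap. The other interferon-gamma genes called were Ccl8, Cxcl10, Gbp2, Igtp, Gbp3 and Ifi47, with differences from 6.18 down to 1.44. Cxcl10, whose promoter is shown above, read 7.70, 7.28, 8.24 and 9.45 in the tumours against 3.93 to 4.56 in germinal centre cells, and Ccl8 was lower in tumour 3 (6.39) than in tumours 1, 2 and 4 (10.29, 10.97 and 11.27). Irgm1, the one gene of the 10 that was not called, read 8.23, 5.80, 8.42 and 9.06, with tumour 2 below the germinal centre arrays (6.28 to 6.66) and the others above.

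**Figure D3:**
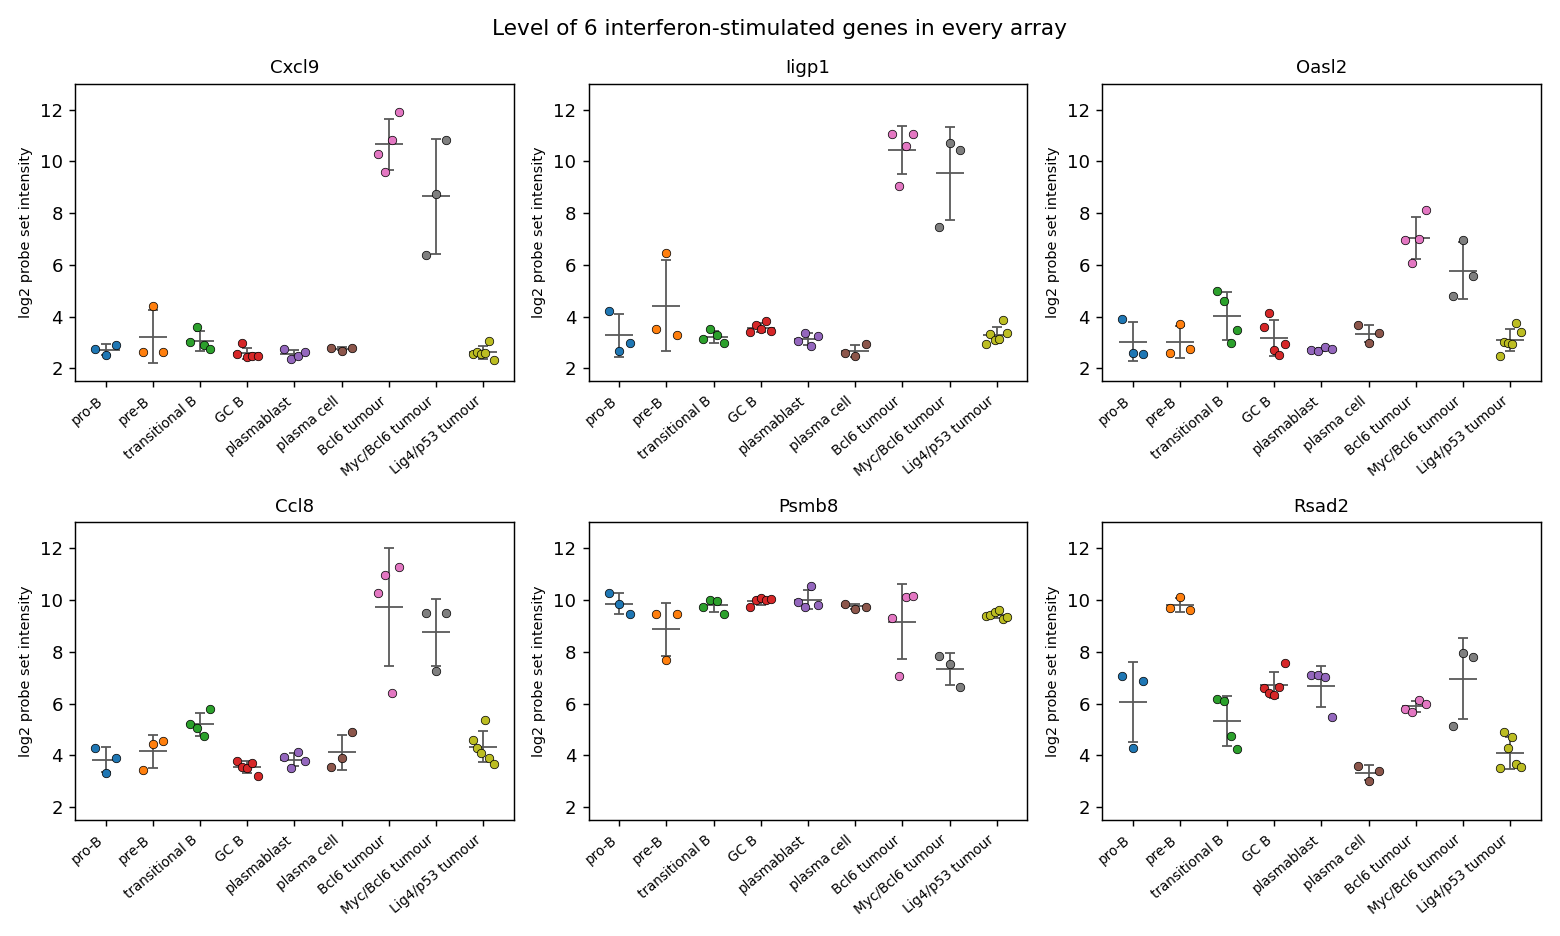
Log2 intensity of Cxcl9, Iigp1, Oasl2, Ccl8, Psmb8 and Rsad2 in 9 groups; points are arrays, and bars are group means with the SD. Cxcl9 and Iigp1 had their highest means in the Bcl6 and Myc/Bcl6 tumours (8.64 to 10.66), Psmb8 was lowest in the Myc/Bcl6 tumours (mean 7.33), and Rsad2 was highest in pre-B cells (mean 9.81).

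Among the type I genes, Oasl2, a relative of the oligoadenylate synthetases that sense double-stranded RNA, read 6.95, 6.08, 7.0 and 8.10 in Bcl6 tumours and 3.61, 4.15, 2.69, 2.52 and 2.93 in germinal centre cells. The groups did not overlap, and the difference was 3.85 ± 0.44 (limma adjusted p = 0.000112). Lgals3bp, a secreted galectin-binding glycoprotein, read 7.40, 6.55, 8.69 and 8.37 against 5.28, 5.39, 4.68, 4.27 and 5.03. It rose by 2.82 ± 0.42 (adjusted p = 0.000656). Ifih1, a cytoplasmic sensor of long double-stranded RNA, read 7.5, 6.78, 8.39 and 8.46 against 5.80, 4.59, 4.33, 4.97 and 5.69, a difference of 2.71 ± 0.42 (adjusted p = 0.000799). All tumours were above all germinal centre arrays for both genes. Rtp4, Ifit1, Mx1 and Eif2ak2 were also called higher, by 1.04 to 2.15. In the other direction, Ifi35 fell by 1.46 on the log2 scale and Rsad2, the antiviral enzyme viperin, fell by 0.82 (adjusted p = 0.0397). Over the 3 probe sets of Rsad2 the difference ran from -1.76 to 0.47.

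The antigen processing genes showed how unequal the change was. Tap1, a subunit of the pump that carries peptides to MHC class I, read 10.48, 9.43, 10.60 and 10.70 in Bcl6 tumours and 8.34, 8.77, 9.18, 9.26 and 9.10 in germinal centre cells, a rise of 1.37 ± 0.31 (limma adjusted p = 0.00673). Its 4 probe sets gave differences from -0.06 to 1.37. Psmb10, a subunit of the immunoproteasome, read 7.63, 7.43, 7.90 and 8.83 against 8.90, 9.16, 9.18, 8.72 and 9.0, and fell by 1.05 on the log2 scale (SE 0.29, adjusted p = 0.0181), although tumour 4 lay within the germinal centre range. The median of the 7 genes was -0.34 and turned to 0.16 when the arrays were quantile normalized again.

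Upstream of these targets, both chains of the receptor for interferon gamma were lower in Bcl6 tumours. Ifngr2, the signalling chain of that receptor, fell by 2.46 on the log2 scale (SE 0.24, limma adjusted p = 5.08e-05), from a mean of 6.47 to 4.01, and its partner Ifngr1 fell by 1.30 (SE 0.38, adjusted p = 0.0219). Irf4, a factor of activated B cells and plasma cells, fell by 2.90 (SE 0.55, adjusted p = 0.00244). Ifng itself read 3.71 to 7.86 in Bcl6 tumours and 3.44 to 6.63 in germinal centre cells, a difference of 0.03 ± 0.82 that was not called. Of the pathway genes listed by role, 3 of 9 ligands were called higher and none lower, 2 of 8 receptors, kinases and STATs lower and none higher, 1 of 5 other interferon regulatory factors lower, and 5 of 8 nucleic acid sensors and adaptors higher and 1 lower. Among all genes 16.7% were called higher and 17.4% lower. Ligand means in Bcl6 tumours were 2.78 to 5.47, on a scale of 1.71 to 14.29. The interferon alpha probe sets among the ligands are from a family of near-identical genes and cannot be assigned to 1 gene with certainty. The largest sensor difference was that of Tlr7, the endosomal receptor for single-stranded RNA, with means of 9.38 in Bcl6 tumours and 5.04 in germinal centre cells (4.34 ± 0.58, adjusted p = 0.000313).

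Markers of other cell types were read in these groups too. Of 14 macrophage and dendritic cell markers, 2 were called higher in Bcl6 tumours than in germinal centre cells and none lower. Of all genes 16.7% were called higher, near the share of these markers, and 17.4% lower. The mean of the 14 was 6.23 to 8.13 in Bcl6 tumours against 5.28 to 6.46 in germinal centre cells. The complement gene C1qb of macrophages had a mean of 12.42 against 8.71, and Csf1r, their growth factor receptor, 12.09 against 7.73. Of 11 liver and stroma markers 6 were called higher and 1 lower, while 7 of 9 NK cell and 4 of 11 T cell markers were called lower, with 1 NK marker and no T cell marker higher. The B cell receptor gene Cd79a read 6.97 against 10.92. Their part in the interferon-stimulated genes was not tested. Of the 20 calls, 16 held without any 1 array, and leaving out tumour 2, of narrow spread, gave 24.

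**Figure D4:**
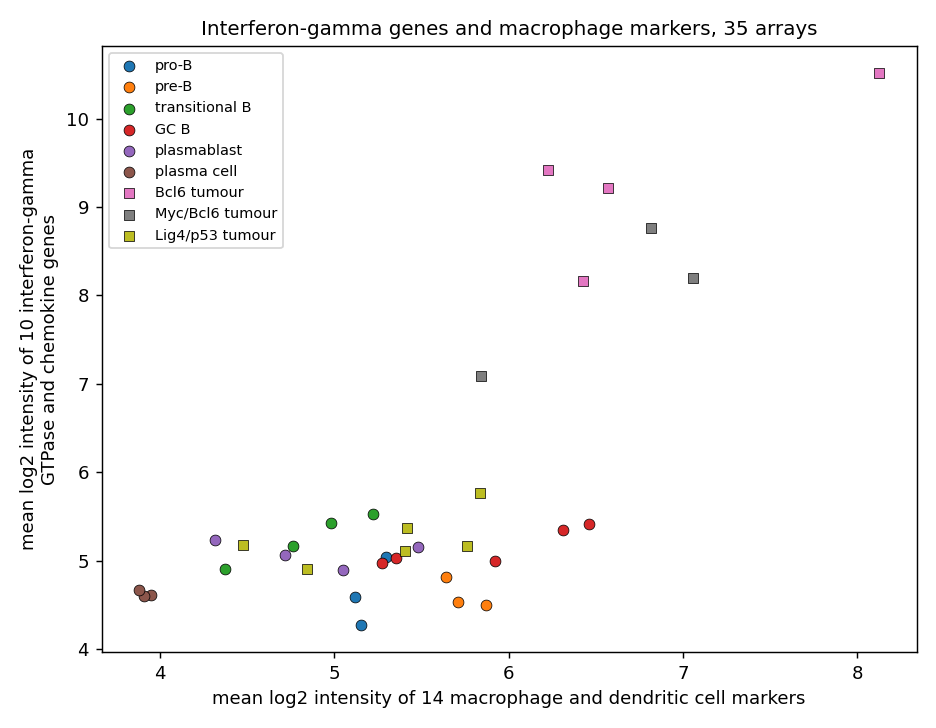
Mean log2 intensity of 14 macrophage and dendritic cell markers (x axis) and of the 10 interferon-gamma genes (y axis) in 35 arrays, coloured by group. The 7 Bcl6 and Myc/Bcl6 tumours stood at 7.09 or more on the y axis at marker means of 5.84 to 8.13, and germinal centre arrays with marker means up to 6.46 stayed at or below 5.41.

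Myc/Bcl6 tumours were set against the same germinal centre arrays. In these tumours 9 of 10 interferon-gamma genes were called higher and none lower, and 5 of 7 antigen processing genes were called lower and none higher. In all, 14 of the 40 genes were called higher, where 30.3% of all genes were, and 8 lower, where 23.8% were, so that the total over the 40 genes was close to that of all genes. By role, the interferon-gamma genes had a median difference of 1.83, the type I genes 0.34 (5 called higher, 1 lower), the antigen processing genes -1.64 and the transcription factors and feedback genes -0.59 (none higher, 2 lower), against 0.31 for all genes. Because both tumour groups were compared with the same germinal centre arrays, the 2 sets of differences are not independent. The interquartile range was 2.33 to 2.85 in Myc/Bcl6 tumours and 3.95 to 4.14 in germinal centre cells. Renewed quantile normalization brought the genes called from 6698 to 4031, while the members called were 22 again (15 higher, 7 lower). The part of the unequal spread in these differences was not tested.

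Ccl8, a chemokine for monocytes and other leukocytes, read 9.49, 7.27 and 9.51 in the 3 Myc/Bcl6 tumours and 3.79, 3.54, 3.51, 3.71 and 3.20 in germinal centre cells. The difference was 5.20 ± 0.49 (limma adjusted p = 7.67e-05), without overlap. Iigp1 read 7.46, 10.71 and 10.43 in these tumours, 5.96 ± 0.64 above the germinal centre cells (adjusted p = 0.000149). Cxcl9 read 6.39, 8.72 and 10.82, and its difference was 6.06 ± 0.78 (adjusted p = 0.000350). Tumour 1 was the lowest of the 3 for Iigp1 and Cxcl9, yet above every germinal centre array for both. Irgm1 and Igtp were called higher, while Ifi47 was not: it read 7.37, 8.73 and 8.18 against 7.87 to 8.70.

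The antigen processing genes went the other way. Psmb8, an immunoproteasome subunit, read 7.85, 7.51 and 6.64 in Myc/Bcl6 tumours and 9.71, 9.99, 10.09, 10.02 and 10.03 in germinal centre cells, and fell by 2.64 on the log2 scale (SE 0.29, limma adjusted p = 0.000164). Psmb9, another subunit of the same particle, read 6.63, 6.76 and 7.63 against 9.45, 9.56, 9.60, 9.01 and 9.52, and fell by 2.42 (SE 0.29, adjusted p = 0.000226). Psmb10 read 7.17, 7.35 and 7.53 and fell by 1.64 (SE 0.22, adjusted p = 0.000384). All 3 inducible subunits were thus lower in every Myc/Bcl6 tumour than in any germinal centre array. Tapbp, the chaperone that bridges the peptide pump and MHC class I, fell by 3.12 and Tap2, a pump subunit, by 1.63. B2m, the light chain of MHC class I, read 11.20, 12.24 and 12.92 against 12.62 to 12.74 and was not called.

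Stat2 and Irf1 fell as well. Stat2, which carries the type I signal, read 3.68, 3.79 and 4.21 in Myc/Bcl6 tumours and 5.78, 5.68, 6.48, 5.92 and 6.21 in germinal centre cells, and fell by 2.12 on the log2 scale (SE 0.26, limma adjusted p = 0.000276). Its second probe set differed by 0.45, with the opposite sign. Irf1, which binds the promoters of many interferon-gamma genes and of the immunoproteasome, read 6.85, 6.66 and 7.57 against 8.30, 8.57, 8.35, 8.56 and 8.70, and fell by 1.47 (SE 0.26, adjusted p = 0.00175). Every tumour was below every germinal centre array for both genes. Among the type I genes Oasl2 read 4.79, 6.97 and 5.57, a rise of 2.60 ± 0.53 (adjusted p = 0.00352). Lgals3bp read 5.92, 6.62 and 6.26, a rise of 1.33 ± 0.31 (adjusted p = 0.00676). Ifi35 read 5.18, 3.46 and 5.74 against 6.57, 6.72, 6.49, 6.64 and 6.85, and fell by 1.86 (SE 0.45, adjusted p = 0.00772). Eif2ak2, the kinase that halts translation on double-stranded RNA, and Rtp4 and Ifih1 completed the type I genes that rose, by 1.26 to 2.46.

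Receptors and kinases were lower here too. Ifngr1 fell by 2.67 on the log2 scale (SE 0.26, limma adjusted p = 9.28e-05), Ifngr2 by 2.42, Jak1, the kinase shared by both receptors, by 1.86, and Irf4 by 5.1. Of the receptors, kinases and STATs 5 of 8 were lower and 1 higher, and of the other interferon regulatory factors 3 of 5 were lower and none higher. Among ligands 8 of 9 were called higher and none lower, where 30.3% of all genes were called higher. Ligand means in these tumours were only 3.51 to 5.34, on a scale of 1.71 to 14.29. The part of the narrow spread of these arrays was not tested. Among sensors and adaptors 3 of 8 were higher and 1 lower. Ifng had a mean of 4.10 against 5.45 and was not called (adjusted p = 0.169). Of the macrophage and dendritic cell markers 5 of 14 were called higher and 2 lower, where 30.3% and 23.8% of all genes were. The mean of that list was 5.84 to 7.06, and C1qb read 12.27 and Csf1r 11.63. Of the liver and stroma markers 7 of 11 were higher and 1 lower, of the B cell markers 1 of 7 higher and 5 lower, and Alb, made by liver, read 13.99 in the highest of the 3 tumours. Their part in these results was not tested. Of the 22 calls, 20 held without any 1 array. With array weights 16 members were called, 8 higher and 8 lower. With the replicate number as a block 13 were called, 6 higher and 7 lower. Under both settings the interferon-gamma genes called higher were thus fewer than 9.

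Between the Myc/Bcl6 and the Bcl6 tumours no gene was called: 0 of the 40 members and 0% of all genes passed. Before adjustment 1218 genes and 11 members had a limma p under 0.05, and all 11 were lower in Myc/Bcl6 tumours. The smallest adjusted p was 0.427. Tap1 had that value and read 7.55, 7.88 and 9.09 in Myc/Bcl6 tumours, below the 4 Bcl6 tumours, with a difference of -2.13 ± 0.52. Irf1 was likewise below in all 3 (difference -2.06 ± 0.56). Cxcl10, Gbp2, Psmb9 and Tapbp differed by -1.92 to -2.25, with arrays that overlapped. The medians were -1.15 for interferon-gamma genes, -1.85 for antigen processing genes, -0.91 for transcription factors and feedback genes and -0.38 for type I genes, against 0.03 for all genes. In the fit on more groups, whose spread comes from all groups, 8 members were called, all lower: Cxcl9, Cxcl10, Gbp2, Tap2, Tapbp, Psmb8, Psmb9 and Irf1.

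Lig4/p53 tumours, which arise from B-cell precursors that cannot join DNA ends, were compared with the other tumours. Against Bcl6 tumours 28 of the 40 interferon-stimulated genes were called lower, where 12.8% of all genes were, and none was called higher, where 20.4% were. By role these were 9 of 10 interferon-gamma genes (median -3.86), 3 of 7 antigen processing genes (median -0.71), 3 of 5 transcription factors and feedback genes (median -1.15) and 13 of 18 type I genes (median -1.66), against a median of -0.08 for all genes.

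Cxcl9 in the 6 Lig4/p53 tumours had a lowest value of 2.30, a median of 2.58 and a highest of 3.05, near its levels in normal cells and far under the Bcl6 tumours. The difference was -8.04 ± 0.37 (limma adjusted p = 7.14e-08). Iigp1 had 2.96, 3.23 and 3.86 as lowest, median and highest, a difference of -7.15 ± 0.37 (adjusted p = 2.02e-07). Cfb had 3.70, 4.01 and 4.28, a difference of -5.05 ± 0.39 (adjusted p = 4.45e-06). None of these 3 genes overlapped between the tumour groups. Ifi47 and Irgm1 differed less, by -1.53 and -1.47, and their arrays overlapped. Gbp3 was the interferon-gamma gene not called: it read 9.65 in Lig4/p53 tumour 6 and 6.45 to 7.46 in the others.

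In antigen processing, Tap1 had a lowest value of 7.92, a median of 8.19 and a highest of 8.89 in Lig4/p53 tumours, below every Bcl6 tumour (-1.97 ± 0.30, limma adjusted p = 0.000442), but its 4 probe sets ran from -1.97 to 0.24. B2m had 11.82, 12.12 and 12.41 against 12.97, 12.59, 12.82 and 12.88 in Bcl6 tumours, a difference of -0.71 ± 0.22 (adjusted p = 0.0219). Psmb9 had 7.44, 7.84 and 8.31 against 9.68, 7.42, 9.53 and 9.73, where Bcl6 tumour 2 lay below the Lig4/p53 tumours and the others above. Its difference was -1.26 ± 0.41 (adjusted p = 0.0315). The transcription factors called were Irf1, Irf9 and Irf7. Irf1 had 6.68, 7.03 and 7.74 against 8.92, 7.86, 9.46 and 10.10, a difference of -1.93 ± 0.39 (adjusted p = 0.00247). Irf9, the DNA-binding part of the type I complex, had 5.22, 6.19 and 6.65 against 7.37, 7.30, 7.64 and 7.44, a difference of -1.35 ± 0.28 (adjusted p = 0.00314). Irf7, the amplifier of type I interferon production, had 3.78, 4.74 and 5.52 against 6.30, 5.01, 5.63 and 6.41, and overlapped (-1.15 ± 0.39, adjusted p = 0.0378). Thus Irf1 and Irf9 lay apart in all arrays and Irf7 did not.

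Oasl2 led the type I genes, with 2.47, 3.00 and 3.75 as lowest, median and highest in Lig4/p53 tumours and a difference of -3.94 ± 0.36 (limma adjusted p = 1.30e-05). Rtp4, a chaperone of membrane receptors that interferons induce, had 3.02, 4.13 and 4.33 against 7.43, 6.29, 6.16 and 7.72 (-3.0 ± 0.38, adjusted p = 0.000112). Ifih1 had 3.27, 4.85 and 5.18, below all Bcl6 tumours (-3.19 ± 0.42, adjusted p = 0.000169). For these 3 genes no Lig4/p53 tumour reached the lowest Bcl6 tumour. Upstream, Irf4 was higher in Lig4/p53 tumours by 2.31 ± 0.44 (adjusted p = 0.00182). Stat3 (-2.0 ± 0.39), Jak2 (-1.37 ± 0.33) and Irf8 (-1.74 ± 0.42) were lower. Ifng differed by -2.73 ± 0.63 (adjusted p = 0.00557), with means of 2.75 and 5.47, and Tlr7 by -5.04 ± 0.46. Counts by role were 2 of 9 ligands, 2 of 8 receptors, kinases and STATs and 4 of 8 sensors and adaptors lower with none higher, and 1 of 5 other interferon regulatory factors in each direction. Among all genes 12.8% were called lower and 20.4% higher. Of the 14 macrophage and dendritic cell markers 5 were lower and none higher, with a list mean of 4.48 to 5.84 in Lig4/p53 tumours. Of the 11 T cell markers 9 were lower. Of the liver and stroma markers 6 of 11 were lower, down to -4.06 for Dcn, and 1 was higher. Of the B cell markers 2 of 7 were higher, among them Cd79a by 3.26, and 1 was lower. Their part was not tested, and 23 of the 28 calls held without any 1 array.

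**Figure D5:**
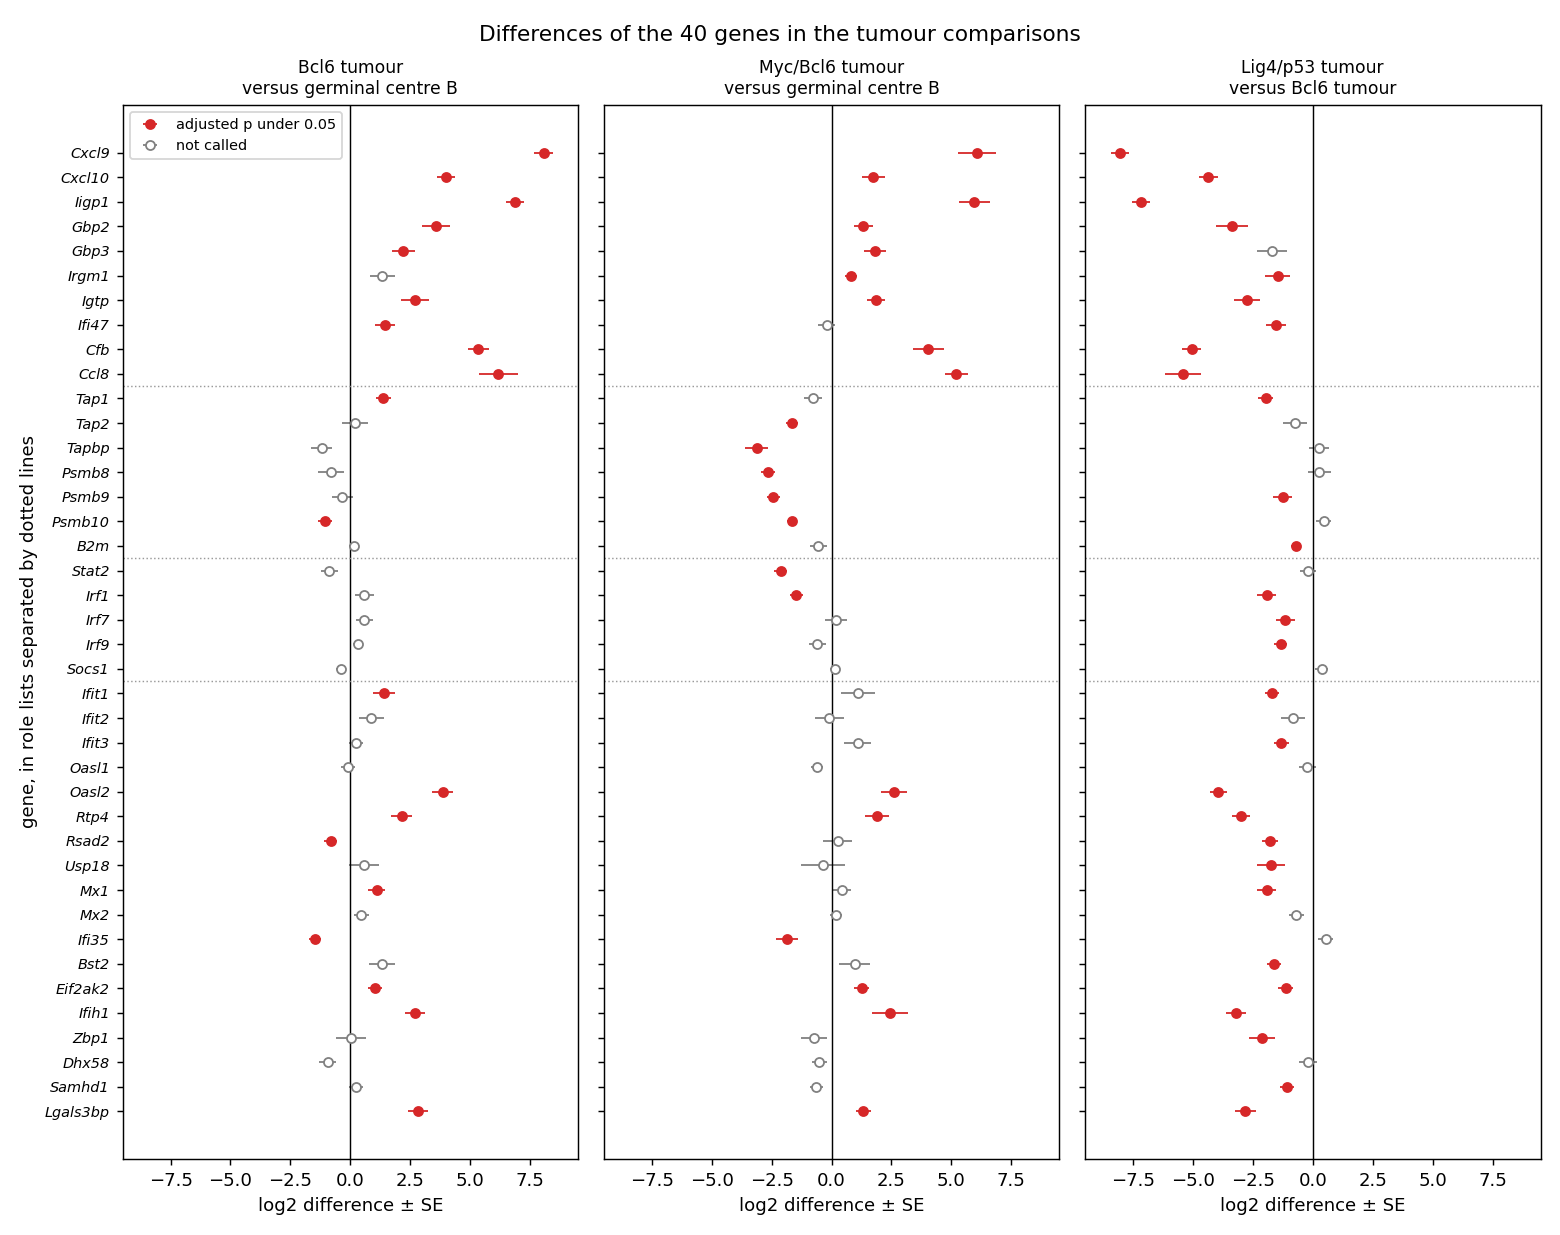
Log2 difference with its SE for the 40 interferon-stimulated genes in 3 comparisons (Bcl6 tumour minus germinal centre B, Myc/Bcl6 tumour minus germinal centre B, Lig4/p53 tumour minus Bcl6 tumour), with called genes as filled red points. Cxcl9 and Iigp1 lay at 8.08 and 6.87 in the first panel and at -8.04 and -7.15 in the last, and Psmb8, Psmb9 and Tapbp lay below 0 in the middle panel; panels share the germinal centre or the Bcl6 tumour arrays.

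Against Myc/Bcl6 tumours the Lig4/p53 tumours had 18 of the 40 genes called lower, where 24.4% of all genes were, and 6 called higher, where 26.7% were. The lower ones were 7 interferon-gamma genes (median -2.0) and 11 type I genes (median -1.29). The higher ones were 5 antigen processing genes (median 1.05) and Stat2, against a median of -0.16 for all genes. Iigp1 differed by -6.25 ± 0.60 (limma adjusted p = 5.05e-05), Cxcl9 by -6.02 ± 0.71 (adjusted p = 0.000143) and Ccl8 by -4.43 ± 0.52 (adjusted p = 0.000144), with a lowest value of 3.68, a median of 4.20 and a highest of 5.37 for Ccl8 in Lig4/p53 tumours. None of the 3 genes overlapped.

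Psmb8 had 9.27, 9.41 and 9.60 as lowest, median and highest in Lig4/p53 tumours, above every Myc/Bcl6 tumour by 2.09 ± 0.28 (limma adjusted p = 0.000302). Tapbp had 9.32, 10.03 and 10.43 against 6.49, 8.74 and 8.14 (2.18 ± 0.45, adjusted p = 0.00303). Tap2 had 5.91, 6.62 and 6.88 against 5.28, 5.37 and 5.62 (1.12 ± 0.26, adjusted p = 0.00622). The antigen processing genes thus stood higher where the interferon-gamma genes stood lower. After renewed quantile normalization 2 of the 7 were called higher, and Psmb9, called higher at 0.82, then differed by -0.01. The genes called went from 6338 to 3589 with that normalization, and 20 members were called (3 higher, 17 lower). Stat2 had 4.38, 5.02 and 5.28 (1.03 ± 0.28, adjusted p = 0.0115), but its second probe set gave -0.73. Rtp4 (-2.74 ± 0.43, adjusted p = 0.000718), Oasl2 (-2.69 ± 0.44, adjusted p = 0.000913) and Rsad2 (-2.86 ± 0.59, adjusted p = 0.00321) had the smallest p among type I genes. Rsad2 had 3.51, 3.98 and 4.91 in Lig4/p53 tumours and 5.15, 7.93 and 7.80 in Myc/Bcl6 tumours. All 3 were lower in every Lig4/p53 tumour than in any Myc/Bcl6 tumour. Irf4 (4.51 ± 0.60) and Ifngr1 (1.54 ± 0.33) were higher in Lig4/p53 tumours, while Ifnar2 (-1.34 ± 0.33) and Jak2 (-1.32 ± 0.37) were lower. By role 7 of 9 ligands and 3 of 8 sensors and adaptors were lower and none higher, where 24.4% of all genes were lower. Ligand means were at most 5.34 in Myc/Bcl6 tumours and 3.88 in Lig4/p53 tumours, and the part of the narrow Myc/Bcl6 arrays was not tested. Of receptors, kinases and STATs 2 of 8 lay in each direction, and 1 of 5 other interferon regulatory factors was higher. Of the macrophage and dendritic cell markers 7 of 14, of the T cell markers 8 of 11 and of the liver and stroma markers 7 of 11 were lower and none higher. Of the B cell markers 5 of 7 were higher and 1 lower, and the part of these cell types was not tested. Of the 24 calls 18 held without any 1 array. With array weights 17 members were called, 5 higher and 12 lower. With the replicate number as a block 12 were called, 1 higher and 11 lower.

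Lig4/p53 tumours were also compared with pro-B cells, a normal stage in which the same DNA joining occurs. Of the 40 genes 1 was called higher, where 11.1% of all genes were, and 5 lower, where 6.25% were. Irgm1, a regulator of the immunity-related GTPases, read 4.37, 4.19 and 4.73 in pro-B cells and had a lowest value of 5.69, a median of 6.50 and a highest of 6.80 in the tumours. It rose by 1.98 ± 0.29 without overlap (limma adjusted p = 0.00166). Bst2, which tethers budding virus particles to the cell surface, read 8.02, 10.44 and 7.78 in pro-B cells and 4.94, 5.23 and 5.91 as lowest, median and highest in the tumours. It fell by 3.41 on the log2 scale (SE 0.53, adjusted p = 0.00223), and pro-B array 2 was the highest. Psmb9 read 8.63, 9.56 and 9.42 in pro-B cells, and fell by 1.37 (SE 0.30, adjusted p = 0.0110). These 3 calls held without any 1 array.

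The other 3 calls each ended without at least 1 of the arrays. Eif2ak2 read 6.83, 6.86 and 7.01 in pro-B cells and 4.97, 5.84 and 6.35 as lowest, median and highest in the tumours, and fell by 1.21 on the log2 scale (SE 0.35, limma adjusted p = 0.0366), while its second probe set differed by 1.14. Rsad2 read 7.06, 4.30 and 6.88 in pro-B cells and fell by 1.98 (SE 0.60, adjusted p = 0.0457), with pro-B array 2 among the tumours. Tap2 read 8.01, 7.52 and 7.05 and fell by 0.99 (SE 0.31, adjusted p = 0.0488). Without Lig4/p53 tumour 1, 2, 3, 5 or 6 the members called came to 3. Ifngr1 was the receptor gene called (-1.45 ± 0.37, adjusted p = 0.0226). By role 1 of 9 ligands and 1 of 8 receptors, kinases and STATs were lower and 2 of 8 sensors and adaptors were higher. Among all genes 6.25% were called lower and 11.1% higher. All 10 granulocyte markers and 4 of 5 plasmacytoid dendritic cell markers were called lower in the tumours. Some T cell and NK cell markers were also called lower, among them Cd3e (-1.95) and Xcl1 (-3.66), and none higher. Of the macrophage and dendritic cell markers C1qb (3.05) and C1qc (1.58) were called higher and none lower. Of the pro-B and pre-B markers Dntt (-7.61) and Vpreb1 (-6.73) were called lower, and Igll1, Rag1, Rag2 and Il7r were not called. The B cell markers Ms4a1 (4.03) and Cd22 (2.85) were called higher and none lower. Pro-B cells are thus not matched to these tumours in their stage markers. The part of these cell types was not tested.

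Among normal cells, the interferon-stimulated genes were compared along the order of B-cell development. Between pre-B and pro-B cells no gene was called: 0 of the 40 members and 0% of all genes passed, and the smallest adjusted p was 0.999. Before adjustment 180 genes and 2 members, Rsad2 and Bst2, had a limma p under 0.05. Rsad2 read 9.69, 10.11 and 9.62 in pre-B cells, above all pro-B arrays, a difference of 3.73 ± 0.81. Bst2 read 7.11, 6.52 and 6.75, below all pro-B arrays (-1.95 ± 0.79). Pro-B array 1 and pre-B array 2 had a narrow spread of values.

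Between transitional and pre-B cells, Rsad2 was the member called, lower in transitional cells. That made 1 of 40 lower, where 0.976% of all genes were, and none of 40 higher, where 0.654% were. Before adjustment 13 members had a limma p under 0.05, of which 12 were higher in transitional cells, and the median of the 40 was 0.82 against 0.04 for all genes. With array weights, whose estimation stopped short of convergence here, 16 members were called higher and 2 lower, and with the fit on more groups 6 higher and 1 lower. Rsad2 read 6.17, 6.10, 4.74 and 4.25 in the 4 transitional arrays, all far below pre-B cells, and fell by 4.49 on the log2 scale (SE 0.54, limma adjusted p = 0.00812). Its 3 probe sets differed by -4.49 to -0.39. Without pre-B array 2 there were 5 members called, 4 of them higher in transitional cells (Gbp2, Igtp, Irf1 and Oasl1). That array read 5.00 for Samhd1, an enzyme that depletes the building blocks of DNA, where the other pre-B arrays read 10.25 and 10.22. None of the ligands, receptors, kinases, STATs, other interferon regulatory factors, sensors and adaptors was called. Of the granulocyte markers 7 of 10 and of the erythroid markers 5 of 7 were called lower in transitional cells, which came from spleen and not from marrow, so stage and tissue cannot be told apart there.

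Between germinal centre and transitional cells, 4 of the 40 genes were called higher in germinal centre cells, where 13.2% of all genes were, and 7 lower, where 29.5% were. Whether these shares differ was not tested, and the count of all genes called, 5286 of 12393, was 3521 after renewed quantile normalization, while that of members stayed at 11. The comparison is also one of strain B6 with strain 129, so stage and strain cannot be told apart here. With strain as a covariate over all normal arrays none of these 11 calls was kept, while Cxcl10, not called otherwise, was called lower. Pro-B cells were the only normal group of both strains. That covariate therefore rested on 2 pro-B arrays of strain 129 and 1 of B6, and cannot separate strain from stage. The calls described next are those without that covariate. Of the genes called, 30.8% were higher, and 44.7% after renewed quantile normalization. The median of all genes was -0.27, and -0.06 after that normalization.

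Ccl8 read 5.22, 5.04, 4.75 and 5.79 in transitional cells, above all germinal centre arrays, and fell by 1.65 on the log2 scale (SE 0.22, limma adjusted p = 0.000423). Gbp3, a guanylate-binding protein, read 6.54, 5.07, 5.03 and 5.1 in transitional cells and 7.24, 7.01, 6.77, 6.66 and 6.58 in germinal centre cells, a rise of 1.42 ± 0.31 (adjusted p = 0.00489). Transitional array 1 came close to the germinal centre range and the others did not. Tap1 read 9.53, 10.02, 9.85 and 10.59 in transitional cells, above all germinal centre arrays, and fell by 1.07 (SE 0.25, adjusted p = 0.00752). Psmb10 read 10, 9.57, 9.56 and 9.41 and fell by 0.64 (SE 0.18, adjusted p = 0.0150). Irf1 read 9.58, 9.40, 9.49 and 9.52 and fell by 1.00 (SE 0.15, adjusted p = 0.000755). For Tap1, Psmb10 and Irf1 the germinal centre arrays all lay below.

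Stat2 read 4.21, 4.12, 4.76 and 5.73 in transitional cells and rose by 1.31 ± 0.32 (limma adjusted p = 0.00819), with array 4 inside the germinal centre range, and its second probe set gave -1.24. Samhd1 read 11.12, 11, 11.03 and 10.85 against 9.61, 9.92, 9.91, 9.99 and 10.03, and fell by 1.11 on the log2 scale (SE 0.15, adjusted p = 0.000515). Lgals3bp read 4.37, 4.05, 3.41 and 4.07 and rose by 0.96 ± 0.27 (adjusted p = 0.0157). Rsad2 read 6.60, 6.42, 6.33, 6.65 and 7.56 in germinal centre cells and rose by 1.40 ± 0.41 (adjusted p = 0.0197), while its other probe sets went as low as -1.0. Rsad2 and Samhd1 did not overlap between the stages and Lgals3bp did. Mx2 and Oasl1 were the other members called, both lower. Irf3, a factor that starts type I interferon transcription, differed by -0.89 ± 0.15, the type I receptor chain Ifnar1 by -1.51 ± 0.36, Irf4 by -1.37 ± 0.37 and Irf5 by 0.85 ± 0.22 (adjusted p = 0.00138 to 0.0133). By role 1 of 9 ligands was higher and 3 lower, and 2 of 8 receptors, kinases and STATs higher and 3 lower. Of 5 other interferon regulatory factors 1 was higher and 2 lower, and of 8 sensors and adaptors 1 was higher and 3 lower. Among all genes 13.2% were called higher and 29.5% lower. Of the NK cell markers 7 of 9 were higher and 1 lower, of the T cell markers 7 of 11 and of the macrophage and dendritic cell markers 6 of 14 higher and none lower, and their part was not tested.

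Within these stages the type I genes varied widely between arrays. Usp18, the protease that removes Isg15 from proteins, read 7.18, 7.28, 4.19 and 4.25 in transitional arrays 1 to 4. Mx1, a GTPase that blocks influenza virus, read 8.16, 6.94, 4.65 and 4.89, and Oasl2 4.97, 4.62, 2.97 and 3.50. Over the 18 type I genes the mean was 6.69, 6.53, 5.03 and 5.08. Arrays 1 and 2 were thus high together in these genes. In germinal centre cells the same mean was 5.86, 5.90, 5.15, 4.97 and 5.32, with arrays 1 and 2 the highest. The labels give nothing that tells these arrays from the others of their groups. The mean of the macrophage and dendritic cell markers was 5.22, 4.98, 4.37 and 4.77 in transitional arrays 1 to 4 and 6.46, 6.31, 5.36, 5.28 and 5.92 in germinal centre arrays 1 to 5, and its part was not tested.

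Between plasmablasts and germinal centre cells none of the 40 genes was called in either direction, where 6.29% of all genes were called higher and 7.26% lower. Before adjustment 5 members had a limma p under 0.05: Iigp1, Samhd1, Cxcl10, Tap1 and Bst2, with adjusted p from 0.0730 to 0.111. Without plasmablast array 4 Samhd1 was called higher (0.76, adjusted p = 0.0312). Of all genes called, 46.4% were higher, and 34.6% with equal array medians. Upstream of the members both type I receptor chains rose, Ifnar2 by 1.49 ± 0.29 (adjusted p = 0.0106) and Ifnar1 by 1.45 ± 0.35 (adjusted p = 0.0231), which made 2 of 8 receptors, kinases and STATs. Ifng fell by 2.57 on the log2 scale (SE 0.57, adjusted p = 0.0168), and of the 9 ligands 1 was higher and 1 lower. NK cell markers were lower in 6 of 9 and higher in 1, T cell markers lower in 6 of 11 and higher in none, and their part in the fall of Ifng was not tested.

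The last step sets plasma cells of bone marrow against plasmablasts of spleen, so stage and tissue cannot be told apart there. Plasma cells had 11 of the 40 genes called lower than plasmablasts, where 10% of all genes were, and 1 higher, where 16.7% were. The lower ones were Ifi47, 4 antigen processing genes, Irf9 and 5 type I genes, and the higher one was Lgals3bp. Ifi47, an immunity-related GTPase, read 4.71, 5.13 and 5.00 in plasma cells and 7.48, 7.6, 8.38 and 8.15 in plasmablasts, and fell by 2.96 on the log2 scale (SE 0.27, limma adjusted p = 0.000136). Tapbp read 9.26, 9.38 and 10.29 against 10.89, 11.06, 11.14 and 10.61, and fell by 1.28 (SE 0.29, adjusted p = 0.0115). Tap1 read 8.30, 7.67 and 5.75 against 9.44, 9.26, 10.13 and 9.33, and fell by 2.30 (SE 0.55, adjusted p = 0.0144), with probe sets from -2.30 to 0.60. B2m read 11.80, 11.69 and 11.25 against 12.31, 12.66, 12.16 and 12.56, and fell by 0.84 (SE 0.23, adjusted p = 0.0257). All plasma cell arrays lay below all plasmablast arrays for these 4 genes.

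Irf9 read 5.98, 6.34 and 5.55 in plasma cells and 6.98, 7.37, 7.38 and 7.09 in plasmablasts, and fell by 1.25 on the log2 scale (SE 0.24, limma adjusted p = 0.00607). Lgals3bp read 8.46, 8.55 and 7.37 against 4.59, 4.96, 5.41 and 4.97, and rose by 3.14 ± 0.33 (adjusted p = 0.000284). Rsad2 read 3.58, 3.02 and 3.40 against 7.09, 7.09, 7.03 and 5.47, and fell by 3.34 (SE 0.41, adjusted p = 0.000615), though its probe sets ran up to 0.34. Zbp1, a sensor of nucleic acids in the left-handed form, read 4.05, 3.57 and 3.47 against 5.71, 5.77, 6.78 and 5.86, and fell by 2.34 (SE 0.31, adjusted p = 0.000856). None of these 4 genes overlapped, and Lgals3bp went against the rest. The receptor gene Ifngr1 differed by -2.10 ± 0.22, Ifnar1 by -1.14 ± 0.28, Irf8 by -1.39 ± 0.35 and Irf3 by -1.11 ± 0.32. These were 2 of 8 receptors, kinases and STATs and 2 of 5 other interferon regulatory factors, all lower, while 1 of 8 sensors and adaptors lay in each direction and no ligand was called. Plasma cell arrays also differed from plasmablasts in 18S rRNA and, in arrays 1 and 2, in the 3' minus 5' difference (4.59 and 4.46, against 0.929 to 1.16), and 7 of 10 granulocyte and 6 of 14 macrophage and dendritic cell markers were called lower and none higher. Their part was not tested. Of the 12 calls 9 held without any 1 array.

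The members not described so far are given by their group means. Gbp2, a guanylate-binding protein, ran from 4.78 in pre-B cells to 9.31 in Bcl6 tumours, and Igtp, an immunity-related GTPase, from 5.22 to 9.22 in the same groups. Both thus shared their lowest and highest group. Ifit1, an antiviral protein that binds foreign RNA caps, ran from 3.60 in pro-B cells to 5.44 in Bcl6 tumours. Its relative Ifit2 ran from 4.40 in pre-B cells to 5.83 in Bcl6 tumours. Ifit3 ran from 4.33 in plasma cells to 7.01 in Myc/Bcl6 tumours, where it read 6.03, 8.72 and 6.28. Ifit3 was thus the member of its family that peaked outside the Bcl6 tumours. Dhx58, a regulator of the RNA sensors, ran from 4.38 in Lig4/p53 tumours to 5.74 in plasma cells, and Mx2 from 2.72 in Lig4/p53 tumours to 4.07 in transitional cells. Socs1, which shuts Jak kinases off, stayed between 2.45 in Bcl6 tumours and 2.98 in Myc/Bcl6 tumours, near the lower end of the array's values, and was called in no comparison. Whether a probe set at that level can follow its gene was not tested.

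Genes with an ISRE core in the promoter window were also set beside those without. Of the 14 members with a match 7 were called higher and 1 lower in Bcl6 tumours than in germinal centre cells, and of the 17 without one 6 were higher and 2 lower. In Lig4/p53 against Bcl6 tumours 11 of 14 with a match and 11 of 17 without were called lower. In Myc/Bcl6 tumours against germinal centre cells 7 with a match were higher and 1 lower, and without one 4 were higher and 6 lower. In Lig4/p53 against Myc/Bcl6 tumours 1 with a match was higher and 9 lower, and without one 4 lay in each direction. In Lig4/p53 tumours against pro-B cells 1 with a match was higher and 3 lower, and without one 1 was lower. Among normal stages, germinal centre against transitional cells had 3 higher with a match and none lower, and 1 higher and 6 lower without. Plasma cells against plasmablasts had 2 lower with a match and none higher, and 1 higher and 7 lower without. In transitional against pre-B cells 1 gene with a match was lower, and in the other 3 comparisons no gene of either kind was called. The differences between the kinds were not tested. The windows hold no distant elements, and the counts are a description.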

How the data were processed

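Per the labels, RNA was extracted with Tripure and its cRNA, made with NuGen's Ovation V2 kit, was biotinylated for Affymetrix 430A2 mouse arrays. The table holds log2 intensities of probe sets as the authors deposited them, and the submitters' processing notes name RMA without a version. Which arrays were normalized together is not given in the sources used here. Of 22690 probe sets, the 64 controls, 691 that carry several symbols and 1555 without a symbol were not used, and 20380 with 1 symbol were. They measured 12393 genes, of which 4956 had more than 1 probe set and were read from the one of highest mean. Levels of different probe sets are not compared.

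Groups came from the labels. The 11 comparisons were fitted in limma on the arrays of the compared groups alone, with Benjamini-Hochberg adjustment over all genes. The labels do not say whether arrays of a group are separate mice, so p-values measure the spread between these samples. Arrays give no counts, so their number limits the precision. On simulated data with independent noise, the fits returned a known shift on average. A difference of means does so at any spread, so this does not check the calls. The rates of false and missed calls in that check are not reported here. The members, lists, comparisons and alternatives were chosen with earlier results of these data known. Named genes were Cxcl9, Iigp1 and Oasl2 and, in each comparison, up to 3 called members of smallest p per role, plus up to 4 called receptors, STATs and interferon regulatory factors. Members named beyond that were chosen after their values were seen, as were Tlr7 and the cell type markers named singly. Trp53 and Lig4 were not analysed here. Fits ran in limma 3.58.1 under R 4.3.3, and the tables and plots were made in Python 3.11.15 (pandas 2.3.3, numpy 2.4.6, matplotlib 3.10.9).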

Additional observations from a re-analysis of the deposited data

Results flagged for a closer look

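Single arrays far from the others of their group were sought for each member in the 5 groups of 4 to 10 arrays. Of 200 such sets 17 held one, and chance gives about 1 in 20. Bcl6 tumour 2, of narrow spread, accounted for 3: Psmb9 read 7.42 there and at least 9.53 in the other Bcl6 tumours, Usp18 read 3.44 and at least 6.02 in the others, and Ifi35 read 4.56 and at least 5.34 in the others. Lig4/p53 tumour 6 accounted for 2, both guanylate-binding proteins: Gbp2 read 8.11, where the others reached 6.04, and Gbp3 read 9.65, where the others reached 7.46. In Lig4/p53 tumour 5 Irgm1 read 5.69, below the 6.39 to 6.80 of the others.

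The germinal centre arrays held several. In array 1 Tap2 read 6.51 and Psmb8 9.71, below the others. Cxcl9 read 2.97 in array 2 against 2.44 to 2.55 in the others, and Irf9 read 7.66 in array 3 against 6.86 to 7.03. In array 4 Psmb9 read 9.01 and Dhx58 4.83, below the others, and in array 5 Rsad2 read 7.56, above them. Plasmablast array 3 was high for Mx2 (3.52) and Zbp1 (6.78), and array 4 low for Rsad2 (5.47, against 7.03 to 7.09). Transitional array 1 was high for Gbp3 (6.54, against 5.03 to 5.1).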

How the results depend on the processing

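The counts of members called that moved, grouped by setting, were as follows. With the fit on more groups, pre-B against pro-B gave 1, transitional against pre-B 7 (6 higher), germinal centre against transitional 3, plasma cell against plasmablast 6 and Myc/Bcl6 against Bcl6 tumours 8. With array weights they were 1 for pre-B against pro-B, 18 for transitional against pre-B (16 higher), 1 for plasmablast against germinal centre, 21 for plasma cell against plasmablast and 11 for Lig4/p53 against pro-B. They were 16 (8 higher) for Myc/Bcl6 against germinal centre and 17 (5 higher) for Lig4/p53 against Myc/Bcl6 tumours. The weights did not converge in the comparisons of pre-B with pro-B and of transitional with pre-B cells. The mean of all probe sets gave 0 for transitional against pre-B and 1 for plasmablast against germinal centre, where renewed quantile normalization gave 3. A filter on dim genes, which tests fewer genes, gave 6 for germinal centre against transitional and 13 for Lig4/p53 against Myc/Bcl6 tumours. The strain covariate, set by the pro-B arrays alone, gave 1 for germinal centre against transitional cells. That gene is not among the 11 called without it. Leaving out the narrow pro-B, pre-B and Bcl6 tumour arrays gave 5 for transitional against pre-B. The Myc/Bcl6 tumours were not left out, since all arrays of that group are narrow. That setting therefore does not check the Myc/Bcl6 tumours for the part of narrow spread. Leaving out each array in turn gave 1 to 5 for transitional against pre-B, 0 to 1 for plasmablast against germinal centre and 3 to 6 for Lig4/p53 against pro-B.

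The replicate number as a block gave 0 for transitional against pre-B and 0 for Lig4/p53 against pro-B. It gave 13 (6 higher) for Myc/Bcl6 against germinal centre and 12 (1 higher) for Lig4/p53 against Myc/Bcl6 tumours. In no comparison did every pair of same-numbered arrays deviate together (r over 0.1 in all pairs). The r was 0.066 to 0.223 in germinal centre against transitional cells and -0.491 to 0.391 in pre-B against pro-B cells. With 3 or 4 pairs in a comparison, this cannot decide whether the numbers pair the samples. With the mean of all probe sets Irf5 and Jak1 turned to -0.14 and -0.15 in germinal centre against transitional cells, and with renewed quantile normalization Psmb9 turned to -0.0120 in Lig4/p53 against Myc/Bcl6 tumours. The cause was not tested.

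Of the single genes' alternatives, 1250 of those that left out 1 array kept direction and call and 157 lost the call. The counts for Bcl6 tumours against germinal centre cells and for Lig4/p53 against Bcl6 tumours stayed within 1.5 times of those reported under each alternative run. Signals of members near the lower end, such as Socs1 and Mx2, limit what can be seen.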
